A study of Mus musculus with 24 samples.

Results

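A set of 9 genes of the FGF-ERK signalling pathway were followed through 2 kinds of sequencing of nuclear RNA from mouse embryonic stem (ES) cells. They were *Fgf4*, *Fgfr1*, *Fgfr2*, *Spry2*, *Spry4*, *Dusp6*, *Etv4*, *Etv5* and *Egr1*, listed by name for their place in the pathway. The choice was made with earlier results of these data known, so shares set beside all genes describe a chosen set. All 9 were found by the symbol of their Ensembl identifier among the 47937 genes of both count tables, and all 9 had enough reads to be tested in both. The cell lines compared were 4, with 2 biological replicates of each in every assay. WT26 is a wild-type line of mixed 129/Sv and C57Bl6 origin, and the *Mettl14* KO line is a single clone (A10) derived from it by CRISPR with guides to both *Mettl3* and *Mettl14*, which carries a small homozygous deletion in *Mettl14*. RBC, also of mixed 129/Sv and C57Bl6 origin, carries BirA-V5 and Cre-ERT2 at Rosa26. The *Mettl3* KO line is a clone (2c4d) made from RBC, so that both lines of this pair carry these insertions. METTL3 and METTL14 form the enzyme complex that writes N6-methyladenosine (m6A) into RNA. Each knockout was compared with the line it was made from, *Mettl14* KO with WT26 and *Mettl3* KO with RBC, to see what changed when either subunit was lost. All cells were grown on gelatin in ES medium with serum replacement and LIF. RNA-seq gave 8 libraries, and MeRIP-seq, in which an antibody against m6A pulls down fragments of methylated RNA, gave 16 libraries (input and immunoprecipitate, IP, of each replicate).

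In ES cells the ligand FGF4 is secreted and acts back on the cells through FGF receptors, which switch on Ras, Raf, MEK and ERK in turn. Active ERK induces the early gene *Egr1* and, through ETS-family transcription factors, further target genes. Several targets are inhibitors that damp the pathway, among them the Sprouty proteins and the ERK phosphatase DUSP6, so the RNA levels of these inhibitors are commonly read as a sign of pathway output. FGF-ERK signalling is known for moving ES cells out of naive self-renewal, and in the early embryo for directing inner cells to primitive endoderm.

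RNA-seq totals ran from 11321459 to 13743181 reads per library and MeRIP-seq totals from 9394163 to 28441282, and levels are given as counts divided by a size factor for each library (normalized counts). The RNA of the targeted genes did not by itself mark the knockouts. *Mettl14* RNA was 401 and 358 normalized counts in WT26 and 296 and 316 in *Mettl14* KO, a log2 fold change of -0.31 (SE 0.09, adjusted p = 0.00609). *Mettl3* RNA was 928 and 979 in RBC, against 880.0 and 821 in *Mettl3* KO (log2 fold change -0.16, SE 0.07, adjusted p = 0.0588). The RNA of a gene disrupted by a small deletion, as *Mettl14* is in its knockout, need not fall. The lesion of the *Mettl3* KO clone is not described in the sources used here. These counts therefore checked the labels little. All 10 ES cell markers on a hand-written list were counted in every line, and their summed level was 36406 to 37317 normalized counts in WT26, 26295 to 26416 in *Mettl14* KO, 32578 to 32852 in RBC and 19788 to 20528 in *Mettl3* KO. All 10 were lower in *Mettl14* KO at an adjusted p of at most 0.05, with log2 fold changes from -0.79 to -0.17. In *Mettl3* KO 9 were lower and 1 (*Klf4*) higher, from -2.03 (*Dppa5a*) to 0.58. Of all genes 27% were lower in *Mettl14* KO and 28.1% in *Mettl3* KO. Fibroblast markers summed to 116 or less in any library, and *Dcn* was at 0 in all 4 lines. Of the 3 tested, *Thy1* was lower in *Mettl14* KO (-2.03, adjusted p = 2.74e-06) and in *Mettl3* KO (-2.62, adjusted p = 1.46e-07). *Col1a2* was higher in *Mettl3* KO (2.26, adjusted p = 0.000413), and *Col1a1* was not called in either.

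Most of the 9 genes had less nuclear RNA in the knockouts. In *Mettl14* KO 6 of 9 were lower and 2 higher than in WT26, where 27% and 25.5% of the 17021 genes tested were lower and higher at an adjusted p of at most 0.05. In *Mettl3* KO 6 of 9 were lower and 1 higher than in RBC, against 28.1% and 25.2% of all genes. By more than 2-fold, 3 genes were lower and 2 higher in *Mettl14* KO (6.57% and 7.95% of all genes), and 3 lower and 1 higher in *Mettl3* KO (7.43% and 6.15%). The median log2 fold change of the 9 was -0.32 for *Mettl14* KO and -0.53 for *Mettl3* KO, beside 0.00 in both over all genes. The inhibitors *Dusp6* and *Spry2* were lower by more than 2-fold in both lines, and the receptor gene *Fgfr2* was higher by more than 2-fold in both. In bulk RNA, fewer cells that express a gene and less RNA per cell cannot be told apart. Markers of other cell types moved with both comparisons. The 5 tested primitive endoderm markers were all higher in *Mettl14* KO (median log2 fold change 1.77), with summed levels of 310 to 323 of 7 markers against 99.8 to 107 in WT26, and 0 were higher and 2 lower in *Mettl3* KO. Of 4 tested neural progenitor markers 2 were higher and 0 lower in *Mettl3* KO (*Pax6* by 1.21 and *Tubb3* by 0.45 on the log2 scale; summed levels of 1413 to 1493 against 1199 to 1213 in RBC), and in *Mettl14* KO *Pax6* was higher (1.96) and *Tubb3* lower (-1.09), with sums of 643 to 675 against 822 to 849 in WT26. Of 4 primed epiblast markers 1 was higher and 2 lower in *Mettl14* KO, among them *Pou3f1* (-3.06), and 0 higher and 1 lower in *Mettl3* KO. Of 3 trophoblast markers 1 was higher in each. The part of these cell types in the changes below was not tested.

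**Figure D1:**
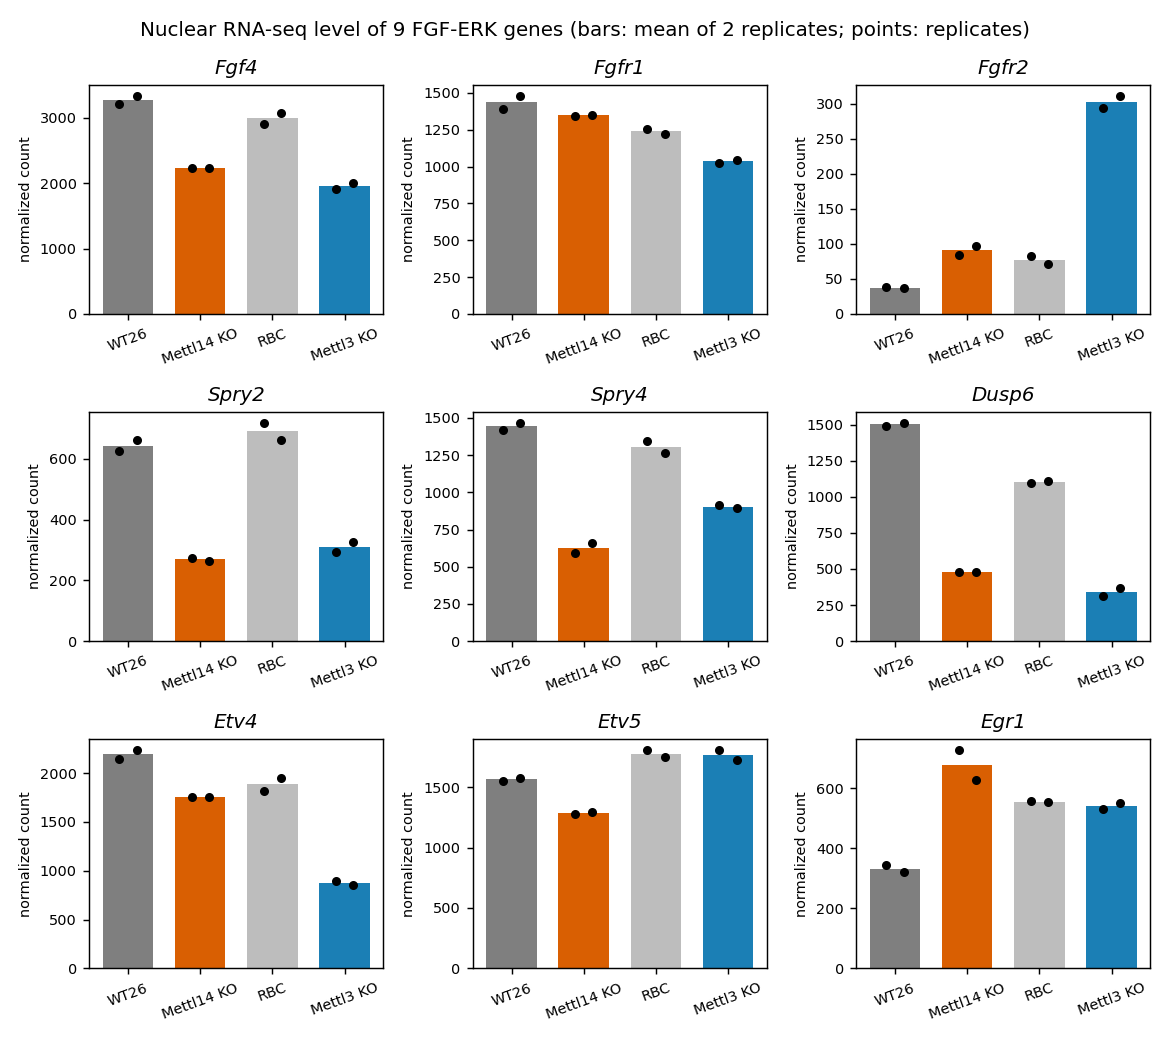
Nuclear RNA-seq level (normalized count, linear axis from 0) of the 9 genes in the 4 lines; bars are means and points the 2 replicates of each line. *Dusp6*, *Spry2*, *Spry4* and *Fgf4* sit below the parental line in both knockouts, *Fgfr2* above it, and *Egr1* is 2.04-fold higher in *Mettl14* KO.

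*Fgf4*, the FGF ligand made by ES cells, had 3209 and 3338 normalized counts (WT26), 2235 and 2238 (*Mettl14* KO), 2906 and 3078 (RBC), and 1913 and 2004 (*Mettl3* KO). Each knockout library lay below both libraries of its parental line. The log2 fold change was -0.55 (SE 0.05, adjusted p = 2.85e-08) in *Mettl14* KO and -0.61 (SE 0.05, adjusted p = 7.08e-09) in *Mettl3* KO, and the difference between the 2 changes (-0.06, 95% interval from -0.19 to 0.07) did not pass the test (adjusted p = 0.481).

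The 2 receptor genes moved in different ways. *Fgfr1*, the main FGF receptor of ES cells, had 1392 and 1479 normalized counts (WT26), 1341 and 1351 (*Mettl14* KO), 1258 and 1220.5 (RBC), and 1027 and 1048 (*Mettl3* KO). The groups did not overlap in either pair, but the distances were small. Its log2 fold change was -0.09 (SE 0.05, adjusted p = 0.149) in *Mettl14* KO and -0.26 (SE 0.05, adjusted p = 0.000576) in *Mettl3* KO, and the second call was lost when libraries were scaled by their totals alone (-0.10, adjusted p = 0.124).

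*Fgfr2*, the receptor that primitive endoderm cells also use, had the fewest normalized counts of the 9 genes in WT26, *Mettl14* KO and RBC, and in *Mettl3* KO as many as *Spry2*. It had 38.0 and 36.5 normalized counts (WT26), 84.1 and 97.4 (*Mettl14* KO), 82.8 and 71.0 (RBC), and 294 and 311 (*Mettl3* KO). It rose 2.43-fold in *Mettl14* KO (log2 1.28, SE 0.18, adjusted p = 9.94e-06) and 3.95-fold in *Mettl3* KO (log2 1.98, SE 0.13, adjusted p = 1.04e-09). The rise was larger in *Mettl3* KO by 0.70 on the log2 scale (SE 0.23, adjusted p = 0.0219), a difference that DESeq2 did not call (adjusted p = 0.107) and that was lost without replicate 1 of WT26 (0.0848), replicate 1 of *Mettl14* KO (0.0789) or replicate 2 of RBC (0.0938). In the GENCODE annotation *Fgfr2* exons overlap those of *Ctbp2* on the same strand, so its counts are uncertain. *Ctbp2* itself was slightly lower in both knockouts (log2 fold change -0.25, adjusted p = 0.000892, and -0.16, adjusted p = 0.0160). In RBC it was higher than in WT26 (0.28, adjusted p = 0.000380). How reads of the shared exons were divided between these genes was not tested.

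The largest fall of the 9 in both knockouts was that of a feedback inhibitor. *Dusp6*, which removes the activating phosphates from ERK, had 1490.3 and 1511 normalized counts in WT26 and 476 and 482 in *Mettl14* KO. In the other pair RBC had 1098 and 1112, and *Mettl3* KO 314 and 371. The highest knockout library was thus well under the lowest parental one in both pairs. *Dusp6* fell to 0.319 of its WT26 level (log2 -1.65, SE 0.07, adjusted p = 3.48e-12) and to 0.309 of its RBC level (log2 -1.69, SE 0.07, adjusted p = 3.67e-12), and the difference between the 2 changes did not pass ( -0.05, 95% interval from -0.25 to 0.15, adjusted p = 0.735).

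*Spry2*, a Sprouty inhibitor of receptor signalling upstream of ERK, had 626 and 662 normalized counts (WT26), 273 and 265 (*Mettl14* KO), 718 and 663 (RBC), and 294 and 326 (*Mettl3* KO). Knockout and parental libraries were separated by a wide gap in both pairs. The log2 fold changes were -1.26 (SE 0.08, adjusted p = 8.96e-10) and -1.16 (SE 0.08, adjusted p = 1.92e-09), and their difference of 0.10 lay within an interval from -0.13 to 0.33 (adjusted p = 0.519).

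*Spry4*, a second Sprouty gene, fell in both lines but not to the same depth. Its normalized counts were 1419.8 and 1466 (WT26), 589.9 and 657 (*Mettl14* KO), 1342 and 1266 (RBC), and 915 and 892 (*Mettl3* KO). The log2 fold change was -1.21 in *Mettl14* KO (SE 0.06, adjusted p = 4.07e-11) and -0.53 in *Mettl3* KO (SE 0.06, adjusted p = 9.72e-07). The fall was smaller in *Mettl3* KO by 0.68 on the log2 scale (SE 0.09, adjusted p = 6.22e-06).

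The promoter of *Dusp6* is shown because this gene had the largest fall in both lines and because its window holds a match to an ETS core, the type of site that the ETS factors downstream of ERK recognise. The letters searched were CCGGAA and CGGAAG on both strands, which overlap each other, in the 300 bases from 250 before to 50 after each RefSeq start (GRCm38.p6). Of the 9 genes 5 had an entry in the promoter table. The 250 bases before the *Dusp6* start, chr10:99262981-99263230 on the plus strand, hold 1 match to CGGAAG read on the opposite strand (bases -62 to -57, in capitals).
*Dusp6* promoter: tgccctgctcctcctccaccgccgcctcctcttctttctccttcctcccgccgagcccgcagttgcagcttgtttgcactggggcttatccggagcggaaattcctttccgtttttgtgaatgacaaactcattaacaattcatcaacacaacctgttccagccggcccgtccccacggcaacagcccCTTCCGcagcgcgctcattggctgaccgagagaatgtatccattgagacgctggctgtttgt
*Spry2*, the other inhibitor lower by more than 2-fold in both knockouts, has 1 match to CCGGAA just after its start, shown with 10 bases on either side (chr14:105896771-105896796, minus strand, match in capitals).
*Spry2* start: gtcatctatcCCGGAAtccgggaggg
The windows of *Fgf4*, *Fgfr2* and *Etv5* hold neither run of letters. Either one occurs in 21.9% of 32851 promoters of the same length (CCGGAA in 14.9%, CGGAAG in 16.9%), so a match is common, and it describes letters, not a bound site.

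Among the transcription factors, each of the 3 genes behaved differently. *Etv4*, an ETS factor of the PEA3 group induced by FGF signalling, had 2149.5 and 2235 normalized counts (WT26), 1753 and 1758 (*Mettl14* KO), 1819.7 and 1948 (RBC), and 891 and 850.1 (*Mettl3* KO). It fell modestly in *Mettl14* KO (log2 -0.32, SE 0.05, adjusted p = 3.06e-05) and by more than 2-fold in *Mettl3* KO (log2 -1.11, SE 0.05, adjusted p = 1.03e-11). The deeper fall in *Mettl3* KO passed the test of the difference (-0.79, SE 0.07, adjusted p = 1.14e-07).

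*Etv5*, its close relative, had 1554.5 and 1574 normalized counts (WT26), 1277 and 1293 (*Mettl14* KO), 1805 and 1751 (RBC), and 1807 and 1729 (*Mettl3* KO). The libraries of *Mettl3* KO and RBC overlapped, unlike those of the other pair. It was lower in *Mettl14* KO (log2 -0.28, SE 0.05, adjusted p = 8.66e-05) and not called in *Mettl3* KO (log2 -0.01, SE 0.05, adjusted p = 0.915), where scaling by library totals alone turned the sign and gave a call (0.15, adjusted p = 0.0248). The difference between the 2 changes was 0.28 (SE 0.07, adjusted p = 0.00294).

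*Egr1*, an immediate-early zinc-finger factor induced within minutes of ERK activation, rose in *Mettl14* KO. Its normalized counts were 343 and 321 (WT26), 727 and 627 (*Mettl14* KO), 556 and 553 (RBC), and 532 and 550.0 (*Mettl3* KO). It rose 2.04-fold in *Mettl14* KO (log2 1.03, SE 0.08, adjusted p = 1.27e-08). In *Mettl3* KO the change was -0.04 (SE 0.08, adjusted p = 0.728), and the change was lower there by 1.06 on the log2 scale (SE 0.12, adjusted p = 1.02e-06). Thus in *Mettl14* KO *Egr1* rose while *Dusp6*, *Spry2* and *Spry4* fell.

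**Figure D2:**
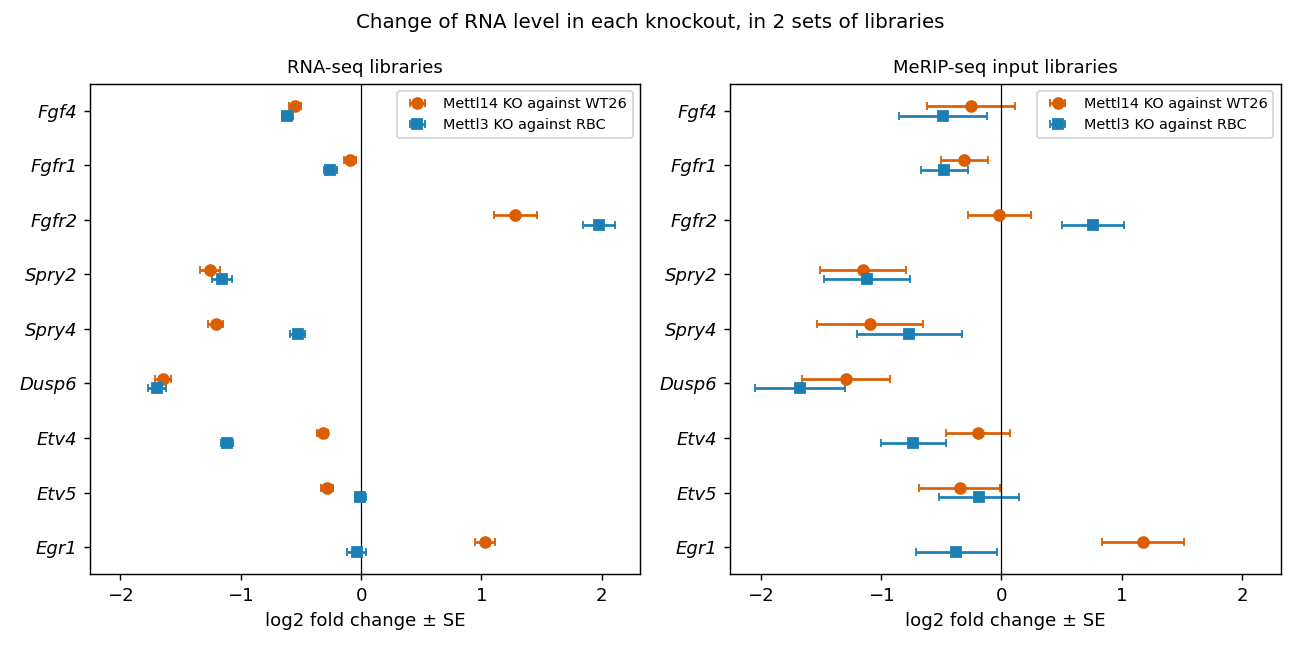
Log2 fold change (point) and SE (bar) of the 9 genes in *Mettl14* KO against WT26 and *Mettl3* KO against RBC, from the RNA-seq libraries (left) and the MeRIP-seq inputs (right), on the same axis. *Dusp6* lies at -1.65 and -1.69 on the left and at -1.29 and -1.67 on the right, and the SEs of the inputs are several times wider.

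The test of the difference between the knockouts called 3 of the 9 genes higher in *Mettl3* KO relative to *Mettl14* KO and 2 lower, beside 20.8% and 22.4% of all genes. *Fgfr2*, *Spry4* and *Etv5* were the 3 and *Etv4* and *Egr1* the 2, whereas *Fgf4*, *Fgfr1*, *Spry2* and *Dusp6* did not pass. The 2 parental lines differed as well. Of the 9 genes 3 were higher and 4 lower in RBC than in WT26, against 19.7% and 19.2% of all genes. *Fgfr2* was 2.05-fold higher (log2 1.03, SE 0.19, adjusted p = 0.000242) and *Egr1* 1.67-fold higher (log2 0.74, SE 0.08, adjusted p = 1.90e-06) in RBC, and *Dusp6* lay at 0.737 of its WT26 level (log2 -0.44, SE 0.06, adjusted p = 3.00e-05). So the *Egr1* level of RBC (556 and 553) was nearer to that of *Mettl14* KO than to that of WT26, and the *Fgfr2* level of RBC overlapped with neither but lay close to *Mettl14* KO (84.1 and 97.4). The calls for *Fgf4* (-0.13), *Fgfr1* (-0.21) and *Etv5* (0.18) between the parental lines were small, and each was lost when 1 library of these lines was left out: *Fgf4* without either replicate of WT26 (adjusted p of 0.0520 and 0.208) or replicate 1 of RBC (0.327), *Fgfr1* without replicate 2 of WT26 (0.0578) or of RBC (0.0525), and *Etv5* without replicate 1 of RBC (0.0548).

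Set per kilobase of annotated exon, so that genes of unequal length can be compared, the ligand gene was the most abundant of the 9 in every line. *Fgf4* stood at 1025 ± 28.4 normalized counts per kb (SD, n = 2) in WT26, 700.0 ± 0.509 in *Mettl14* KO, 936 ± 38.0 in RBC and 613 ± 20.2 in *Mettl3* KO. *Etv4* came second at 706 ± 19.5 in WT26 and had rank 3 in *Mettl3* KO (281 ± 9.39), behind *Etv5* (431 ± 13.4). The inhibitor *Dusp6* changed its place. Its rank was 3 in WT26 (479 ± 4.58), 4 in RBC (353 ± 3.20), 4 in *Mettl14* KO (153 ± 1.47), where its libraries overlapped those of *Egr1* (151 ± 15.7), and 7 in *Mettl3* KO (109 ± 12.8). *Spry2* and *Spry4* did not differ beyond their spread in WT26 (309 ± 12.4 and 303 ± 6.80) nor in *Mettl14* KO (129 ± 2.86 and 131 ± 9.92). *Fgfr2* was last in all 4 lines, at 3.61 ± 0.101 in WT26 and 29.3 ± 1.19 in *Mettl3* KO, below *Fgfr1* (105 ± 1.47) even after its rise.

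The other genes of the pathway were taken from 6 hand-written lists of 74 genes, of which 60 had enough reads in RNA-seq. These lists, too, were written with earlier results of these data known. In *Mettl14* KO 17 of the 60 were higher and 21 lower (28.3% and 35%, against 25.5% and 27% of all genes), and the median log2 fold change was -0.06. In *Mettl3* KO 19 were higher and 22 lower (31.7% and 36.7%, against 25.2% and 28.1%), with a median of -0.02. The signalling core of Ras, Raf, MEK and ERK genes moved little in *Mettl14* KO, with none past 2-fold. Of its 13 genes 4 were higher and 4 lower in *Mettl14* KO (log2 fold changes from -0.67 to 0.36), and 3 higher and 5 lower in *Mettl3* KO. The 1 gene of this core past 2-fold was *Ksr1*, the scaffold that holds Raf, MEK and ERK together, with 151 and 151 normalized counts in RBC and 358 and 355 in *Mettl3* KO (log2 1.24, SE 0.10, adjusted p = 6.44e-09), against -0.20 (adjusted p = 0.0758) in *Mettl14* KO. Of 10 adaptors and Ras regulators, 4 were higher and 1 lower in *Mettl14* KO and 5 higher and 2 lower in *Mettl3* KO, none past 2-fold.

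The other ligand genes had fewer reads than *Fgf4*, and *Fgf2*, the prototype FGF, went in opposite directions. It had 16.3 and 15.0 normalized counts (WT26) and 6.0 and 6.8 in *Mettl14* KO (log2 -1.27, adjusted p = 0.0202), but 4.6 and 5.9 (RBC) and 19.1 and 14.1 in *Mettl3* KO (log2 1.64, adjusted p = 0.00540). In *Mettl3* KO 4 ligand genes were higher by more than 2-fold, *Fgf1* (1.37), *Fgf3* (1.50), *Fgf18* (1.65) and *Fgf2*, while *Fgf17* was lower (-1.07). In *Mettl14* KO *Fgf15*, which is expressed in early neural tissue, was higher (1.81) and *Fgf10* lower (-1.08). Several of these levels were low. *Fgf15* had 1.8 and 5.4 normalized counts (WT26) and 14.0 and 10.7 (*Mettl14* KO), and *Fgf10* 22.6 and 21.5 against 9.0 and 11.7. *Fgf3* had 5.7 and 2.0 (RBC) and 7.8 and 14.1 (*Mettl3* KO), and *Fgf18* 13.8 and 9.9 against 36.5 and 37.3. Of the receptors, *Fgfr4* fell in both lines (-1.01 and -1.51). *Fgfr3* had 151 and 144 normalized counts in RBC and 44.3 and 58.4 in *Mettl3* KO (-1.53), and its change in *Mettl14* KO was 0.33 (adjusted p = 0.146).

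The inhibitor genes other than *Dusp6*, *Spry2* and *Spry4* did not share their direction. Of 9 tested, 4 were higher and 4 lower in *Mettl14* KO, and 3 higher and 3 lower in *Mettl3* KO. *Dusp9*, another ERK phosphatase, had 396 and 414 normalized counts (WT26) and 1644 and 1503 in *Mettl14* KO (log2 1.96, SE 0.07, adjusted p = 5.64e-13), but 517 and 524 (RBC) and 516 and 561 in *Mettl3* KO (0.05, adjusted p = 0.629). *Dusp4*, a nuclear phosphatase of ERK, behaved alike (1.23 in *Mettl14* KO, 0.20 with adjusted p = 0.271 in *Mettl3* KO), whereas *Dusp7* was higher past 2-fold in *Mettl3* KO (1.25) and by 0.76 in *Mettl14* KO. So in *Mettl14* KO 1 ERK phosphatase gene (*Dusp6*) fell 3.13-fold while others (*Dusp4*, *Dusp7* and *Dusp9*) rose.

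More of the remaining genes on the list of ETS and immediate-early genes were lower than higher in both lines. That list holds transcription factors of the ETS family as well as genes induced by ERK, so it does not count targets alone. Of the 17 ETS and immediate-early genes tested beside *Etv4*, *Etv5* and *Egr1*, 9 were lower and 3 higher in each knockout (52.9% and 17.6%, where 27% and 28.1% of all genes were lower and 25.5% and 25.2% higher in *Mettl14* KO and *Mettl3* KO). *Junb*, a subunit of the AP-1 factor, fell from 533 and 629 normalized counts (WT26) to 182 and 145 in *Mettl14* KO (-1.82, adjusted p = 6.94e-10), and from 635 and 648 (RBC) to 144 and 183 in *Mettl3* KO (-1.98, adjusted p = 2.18e-10). *Phlda1*, a target of growth factor signalling, fell in both as well (-1.32 and -1.95). *Fosb*, another AP-1 subunit, rose in both, with 160.2 and 165 in *Mettl14* KO against 27.1 and 29.0 in WT26, and with 76.5 and 75.5 in *Mettl3* KO against 24.1 and 35.5 in RBC. *Fos* had 155 and 138.5 normalized counts (WT26) and 413 and 351 in *Mettl14* KO (1.37) but 132 and 138 (RBC) and 124 and 132 in *Mettl3* KO (-0.08, adjusted p = 0.633), a pattern close to that of *Egr1*. *Atf3* was higher by 1.35 and *Nr4a1* lower by a log2 fold change of -1.18 in *Mettl14* KO, and *Jun* (-1.08), *Ier3* (-1.53) and *Egr2* (-1.22) passed 2-fold in *Mettl3* KO.

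**Figure D3:**
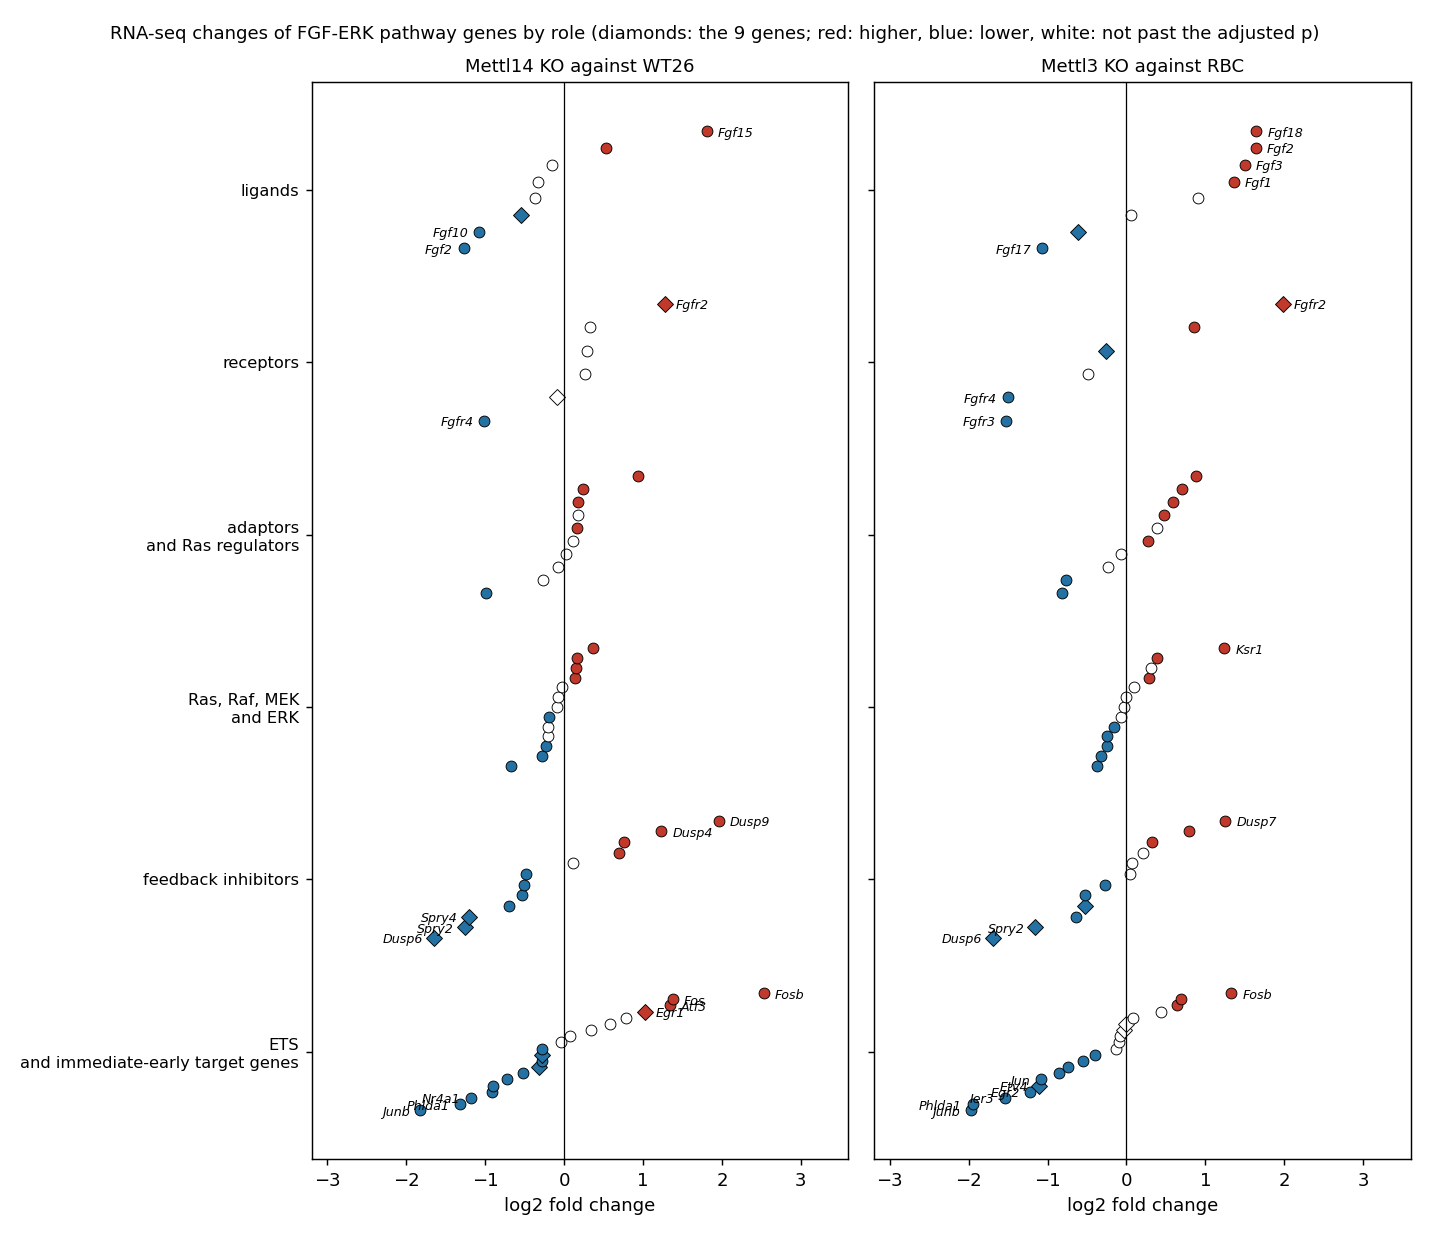
RNA-seq log2 fold change of the tested genes of 6 pathway lists, by role, in *Mettl14* KO against WT26 (left) and *Mettl3* KO against RBC (right); diamonds are the 9 genes, circles the other 60, red is higher, blue lower and white not past the adjusted p, and names mark changes past 2-fold. The core of Ras, Raf, MEK and ERK genes stays within -0.67 to 0.36 in *Mettl14* KO, where the ETS and immediate-early genes reach from -1.82 to 2.53. In *Mettl3* KO the core reaches 1.24 (*Ksr1*) and the ETS and immediate-early genes from -1.98 to 1.33.

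Genes whose level followed the members over the 8 RNA-seq libraries most closely were sought among 11878 genes, for the members changed by more than 2-fold, with Pearson's r of log2 (normalized count + 1). These are descriptions over 8 libraries that share 4 lines. The *Dusp6* pattern was nearest to that of *Prss35*, *Ccna2* and *Pkhd1* (r from 0.996 to 0.998). *Pkhd1*, a gene of epithelial cilia, ranged from 804 and 708 normalized counts in WT26 to 19.1 and 28.2 in *Mettl3* KO. *Spry2* lay nearest to *Bcas2*, *Ppid* and *Vim* (0.994 to 0.997), and *Vim*, which encodes the filament protein vimentin, had 2230.0 and 2412 in WT26 and 983.5 and 903 in *Mettl14* KO. *Spry4* lay nearest to *Myo1c*, *Cd80* and *Tfcp2l1* (0.994 to 0.997). *Tfcp2l1*, a transcription factor of naive pluripotency, had 5214 and 5109 (WT26), 2708 and 2790.1 (*Mettl14* KO), 5041 and 4908 (RBC) and 3837 and 3530.4 (*Mettl3* KO). *Etv4* lay nearest to *Zfp57*, *Trappc11* and *Far1* (0.995 to 0.996), *Egr1* to *Gcfc2*, *Stxbp4* and *Adgrv1* (0.987 to 0.993), and *Fgfr2* to *Atp9b*, *Thada* and *Plxna3* (0.989 to 0.994).

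The inputs of the MeRIP-seq, which are sonicated RNA without IP, gave a second measure of RNA level. No member passed the adjusted p in either knockout with edgeR (0 of 9 in each, beside 0.398% and 0.76% of 22621 features for *Mettl14* KO and *Mettl3* KO). At an unadjusted p under 0.05 there were 4 and 5 of the 9, beside 2389 and 2638 of the 22621 features, and DESeq2 called 1 in each, *Dusp6*. The calls depended on the treatment of replicate numbers: same-numbered inputs of different lines deviated together (r from 0.251 to 0.452), and edgeR on the inputs alone with the number as a replicate block called 1 higher (*Egr1*) and 4 lower (*Spry2*, *Spry4*, *Dusp6* and *Etv5*) in *Mettl14* KO, and 1 higher (*Fgfr2*) and 6 lower (*Fgf4*, *Fgfr1*, *Spry2*, *Spry4*, *Dusp6* and *Etv4*) in *Mettl3* KO. *Dusp6* had 691 and 503 normalized counts (WT26 inputs), 236 and 253 (*Mettl14* KO), 538 and 438 (RBC) and 161 and 145 (*Mettl3* KO). The groups were again separate, and its log2 fold changes were -1.29 (SE 0.36, adjusted p = 0.150) and -1.67 (SE 0.37, adjusted p = 0.0549). *Spry2* changed by -1.15 (SE 0.36) and -1.12 (SE 0.36), *Spry4* by -1.09 (SE 0.44) and -0.76 (SE 0.44), and *Egr1* by 1.18 (SE 0.34) and -0.37 (SE 0.34). In *Mettl14* KO the falls of *Fgf4* (-0.25, SE 0.36) and *Etv4* (-0.19, SE 0.27) were smaller here than in RNA-seq, and neither was called with the replicate block. *Fgfr2* differed from RNA-seq as well. Its inputs held 116 and 174 (WT26) and 131 and 156 (*Mettl14* KO), which overlapped (-0.02, SE 0.26), and 194 and 182 (RBC) and 354 and 284 in *Mettl3* KO (0.76, SE 0.26), so that the rise seen in RNA-seq of *Mettl14* KO was not seen in these inputs.

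The m6A IP separated the 9 genes into 2 groups. *Fgf4*, *Spry2*, *Spry4*, *Dusp6* and *Egr1* were enriched in the IP over the input at an adjusted p of at most 0.05 in WT26, in *Mettl14* KO and in RBC (5 of 9 in each, beside 16.9%, 13.5% and 15.5% of all 22621 features), each by more than 2-fold. *Fgfr1*, *Fgfr2*, *Etv4* and *Etv5* were not. In *Mettl3* KO 1 of 9 passed, *Spry2*, beside 2.78% of all features. Thus the ligand, the 3 inhibitors and the immediate-early gene were enriched, and the receptors and the ETS factors were not called, although with library size alone *Etv5* also passed in WT26 (1.10, adjusted p = 0.0210) and RBC (1.21, adjusted p = 0.0139). In all 4 lines replicate 2 gave the wider spread of IP over input (SD of the log2 ratio over tested features from 1.24 to 1.73, against 0.890 to 1.07 in replicate 1), and replicate 2 was the higher for 7 or 8 of the 9 genes. Without replicate 2 of WT26, *Mettl14* KO or RBC the calls of that line were lost, with log2 enrichment of the 5 from 0.72 to 1.73. Leaving out replicate 1 likewise left only 1 pair of libraries in the line, but the calls other than that of *Spry4* stayed. The calls in these lines thus rested mainly on replicate 2. Without replicate 1 or replicate 2 of *Mettl3* KO its *Spry2* call was lost (log2 enrichment 2.10 and 0.98).

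*Spry2* was the most enriched of the 9. The ratio of IP to input was 3.09 and 6.02 in replicates 1 and 2 of WT26, 3.26 and 5.77 (*Mettl14* KO), 3.31 and 5.94 (RBC), and 1.98 and 4.31 (*Mettl3* KO). Every line was above 1 in both replicates, and the distance between replicates was wider than that between WT26, *Mettl14* KO and RBC. The log2 enrichment was 2.13 (SE 0.36, adjusted p = 0.00495) in WT26, 2.17 (SE 0.37, adjusted p = 0.00613) in *Mettl14* KO and 2.19 (SE 0.36, adjusted p = 0.00607) in RBC. In *Mettl3* KO it was 1.58 (SE 0.36, adjusted p = 0.0283), a call that was lost when each input was paired with its own IP as a block (1.53, SE 0.38, adjusted p = 0.0556).

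*Dusp6* had ratios of 2.26 and 4.40 (WT26), 1.85 and 4.14 (*Mettl14* KO), 1.94 and 3.77 (RBC), and 1.13 and 1.40 (*Mettl3* KO). Both *Mettl3* KO libraries lay below every library of the other lines. The log2 enrichment was 1.66 (SE 0.36, adjusted p = 0.00784) in WT26, 1.60 (SE 0.37, adjusted p = 0.0126) in *Mettl14* KO, 1.46 (SE 0.36, adjusted p = 0.0134) in RBC and 0.33 (SE 0.37, adjusted p = 0.603) in *Mettl3* KO.

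*Spry4* (chr18:38586247-38601415, minus strand, 2 exons) had ratios of 1.73 and 3.40 (WT26), 1.64 and 3.29 (*Mettl14* KO), 1.79 and 3.37 (RBC), and 1.13 and 1.73 (*Mettl3* KO). Its log2 enrichment was 1.34 in WT26 (SE 0.44, adjusted p = 0.0329), 1.40 in *Mettl14* KO (SE 0.44, adjusted p = 0.0349) and 1.34 in RBC (SE 0.44, adjusted p = 0.0377). It was the least firm of the 5, and was also lost without replicate 1 of WT26 (0.0574) or of RBC (0.0610) in those lines, and in all 3 without either replicate of *Mettl3* KO (from 0.0554 to 0.0631). In *Mettl14* KO an edgeR fit with a replicate block within inputs and within IPs gave 0.80 (adjusted p = 0.0525), which left 4 of the 9 there. That fit sets IP over input at the level of replicate 1, so its value is not the enrichment over both replicates.

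*Egr1* (chr18:34859823-34864984, plus strand, 2 exons) had ratios of 2.03 and 3.86 (WT26), 2.15 and 3.13 (*Mettl14* KO), 2.15 and 3.59 (RBC), and 1.42 and 2.95 (*Mettl3* KO). *Fgf4* had ratios of 1.76 and 3.24, 1.85 and 3.53, 1.68 and 2.96, and 1.16 and 2.30 in the same order. Both genes stayed above 1 in all 8 pairs of libraries. Their log2 enrichment in WT26 was 1.50 (SE 0.34, adjusted p = 0.00867) for *Egr1* and 1.28 (SE 0.37, adjusted p = 0.0196) for *Fgf4*, and in *Mettl3* KO 1.02 (SE 0.34, adjusted p = 0.0858) and 0.74 (SE 0.37, adjusted p = 0.222).

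**Figure D4:**
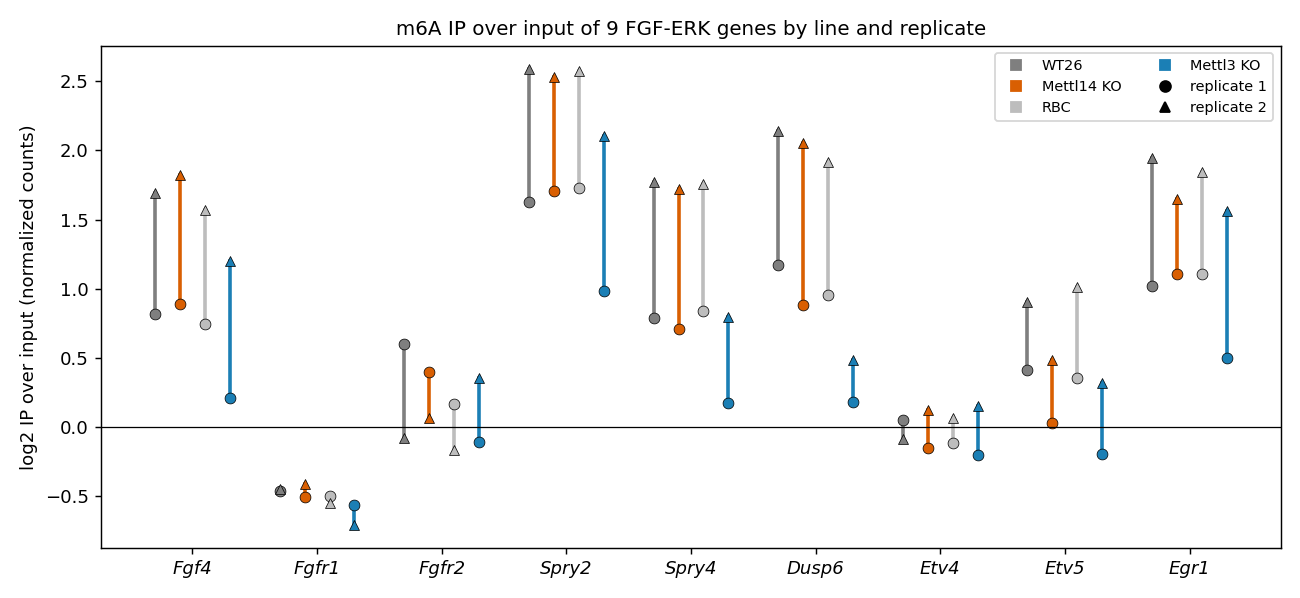
Log2 ratio of IP to input (normalized counts) of the 9 genes in the 4 lines; circles are replicate 1, triangles replicate 2, and a line joins the 2 replicates. *Fgf4*, *Spry2*, *Spry4*, *Dusp6* and *Egr1* lie above 0 in every pair, *Fgfr1* below 0 in every pair, and replicate 2 is mostly the higher.

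The other 4 genes were not called. *Fgfr1* had less RNA in the IP than in the input in all 8 pairs, with ratios from 0.613 to 0.751 and a log2 value of -0.45 (SE 0.19, adjusted p = 0.0850) in WT26. *Etv4* had ratios from 0.868 to 1.11 and a log2 value of -0.01 (SE 0.27, adjusted p = 0.975) in WT26. *Fgfr2* had ratios from 0.891 to 1.51, with replicates on both sides of 1 in 3 of the lines. *Etv5* had a ratio of 1.33 and 1.87 (WT26) and 1.28 and 2.02 (RBC), but 1.02 and 1.40 (*Mettl14* KO) and 0.873 and 1.25 (*Mettl3* KO), and its log2 value of 0.69 in WT26 did not pass (SE 0.33, adjusted p = 0.119). Of all 63 tested pathway genes outside the 9, 14.3% were enriched in WT26, 17.5% in *Mettl14* KO and 22.2% in RBC. The shares of all tested coding genes were 21.8%, 17.8% and 20%. Among these pathway genes, 3 of 9 inhibitor genes were enriched in WT26, 4 in *Mettl14* KO and 5 in RBC (33.3%, 44.4% and 55.6%, beside the 16.9%, 13.5% and 15.5% of all features). Of 13 genes of the Ras, Raf, MEK and ERK core 1 was enriched in each of these lines, while 4, 3 and 4 were depleted (30.8%, 23.1% and 30.8%, beside 16.1%, 12% and 13.1% of all features).

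The change of IP over input in a knockout was tested as the difference between its log2 enrichment and that of its parental line. With edgeR 0 of 9 genes passed in either knockout, and 0 of all 22621 features (0% in each). At an unadjusted p under 0.05 there were 126 features and 0 members for *Mettl14* KO, and 787 features and 1 member for *Mettl3* KO, and DESeq2 called 1 feature and 0 features. For *Mettl14* KO the changes of the 9 ran from -0.39 (*Etv5*) to 0.17 (*Fgf4*), with a median of 0.00. For *Mettl3* KO they ran from -1.14 (*Dusp6*) to 0.10 (*Fgfr2*), and the median was -0.50, beside 0.01 over all features. Over the 14747 tested coding genes the median was -0.12, and over those with 1 to 3 exons it was -0.46. *Dusp6*, the member at the unadjusted p, had a change of -1.14 (SE 0.51, unadjusted p = 0.0430, adjusted p = 0.854). *Spry4* had -0.87 (SE 0.62), *Etv5* -0.66 (SE 0.47), *Spry2* -0.61 (SE 0.50), *Egr1* -0.50 (SE 0.47) and *Fgf4* -0.47 (SE 0.51). These intervals were wide. For *Dusp6* the 95% interval ran from -1.05 to 0.93 for *Mettl14* KO, which includes a halving of enrichment, and for *Mettl3* KO from -2.14 to -0.13. The SE was 0.51 in both, and at this spread the change of -1.14 in *Mettl3* KO, past a halving, did not pass the adjusted p either.

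A feature that the choice of genes did not use followed the split. The 5 enriched genes have 2 or 3 exons in their principal transcript (GENCODE, GRCm38), and the 4 others have 13 or 18. *Fgf4* (chr7:144861386-144865243, plus strand) and *Dusp6* (chr10:99263231-99267488, plus strand) have 3 exons. *Spry2* (chr14:105891947-105896819, minus strand) has 2, of which the longer holds 88.9% of the transcript. *Etv4* (chr11:101769742-101785310, minus strand) and *Etv5* (chr16:22381309-22439719, minus strand) have 13. *Fgfr1* (chr8:25518759-25575718, plus strand) and *Fgfr2* (chr7:130163709-130266191, minus strand) have 18. Among all 14747 tested coding genes with such a transcript, the 2244 with 1 to 3 exons had a median log2 IP over input of 1.28 in WT26 and 47.4% were enriched, and the 6713 with 10 or more exons had a median of -0.08 and 9.25% were enriched. The 5 members had a median of 1.50 and the 4 a median of 0.11. In *Mettl3* KO the first class had a median of 0.74 and 8.38% enriched, and the change against RBC had a median of -0.46 in that class and -0.61 in the 5 members. The part of exon number in the enrichment was not tested.

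**Figure D5:**
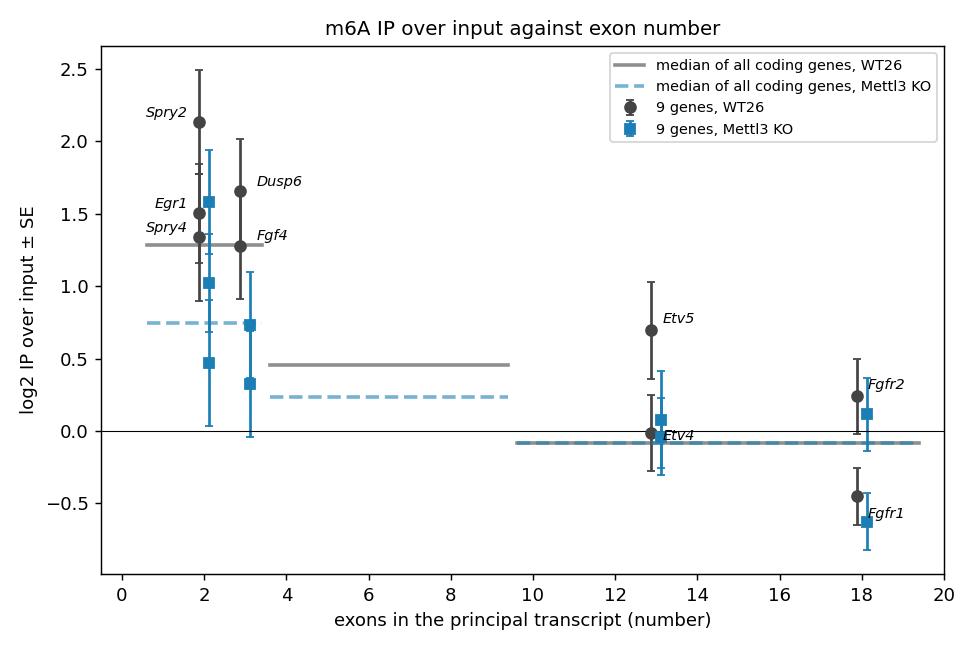
Log2 IP over input (points, with SE) against the number of exons for the 9 genes in WT26 and *Mettl3* KO; horizontal lines are the medians of all tested coding genes with 1 to 3, 4 to 9 and 10 or more exons (solid WT26, dashed *Mettl3* KO). The 5 genes with 2 or 3 exons lie from 1.28 to 2.13 in WT26 and from 0.33 to 1.58 in *Mettl3* KO, and the 4 with 13 or 18 lie from -0.45 to 0.69 and from -0.63 to 0.11.

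The letters of the m6A motif did not separate the genes. METTL3 and METTL14 prefer the A of GGAC followed by any base but G, and these 5-base runs were searched on the strand of the RNA alone. At least 1 match occurs in 97.7% of 21894 principal transcripts, with a median of 3.7 per kb in the tested genes. *Dusp6* has 17 matches (6.08 per kb), *Fgf4* 16 (5.28), *Spry2* 11 (5.27), *Egr1* 11 (2.45) and *Spry4* 9 (1.89), while *Etv4* has 13 (5.57), *Etv5* 21 (5.28), *Fgfr1* 25 (4.98) and *Fgfr2* 14 (4.21), so enriched and other genes overlapped, and the 2 members under the median, *Egr1* and *Spry4*, were enriched ones. The match nearest to the stop codon, where m6A is known to be frequent, is shown with 10 bases on either side for 3 enriched genes and 2 that were not (motif in capitals, DNA letters of the RNA strand). These 5 lie in the coding sequence, and the A of the *Dusp6* match is 19 bases, that of *Fgfr1* 15, of *Fgf4* 62, of *Etv4* 100 and of *Spry2* 244 bases before the last base of the stop codon. Of the matches not shown, that of *Etv5* also lies in the coding sequence. That of *Fgfr2* lies in the 3' untranslated region, 30 bases after the last base of the stop codon.
*Spry2*, chr14:105893035-105893059: atgacgatgaGGACAattgtgctga
*Dusp6*, chr10:99266268-99266292: tctaccaggtGGACTccctgcagtc
*Fgf4*, chr7:144862867-144862891: aagaacgggcGGACCaagaagggga
*Fgfr1*, chr8:25573894-25573918: tgccaacagtGGACTcaaacggcgc
*Etv4*, chr11:101770454-101770478: tcagtgaggaGGACAcagtcccttt
The counts are per gene, so none of these values says which match, if any, was methylated.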

How the data were processed

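Nuclear RNA-seq (8 libraries) and MeRIP-seq (16 libraries, input and m6A IP of 3 combined reactions) covered 4 lines with 2 replicates each. The authors deposited raw counts for both, per gene and, for MeRIP-seq, also per repeat subfamily (1153). MeRIP-seq reads were trimmed with cutadapt 1.8.1, aligned to GRCm38 with STAR 2.6.0c and counted with TEtranscripts in its multi mode; a counter and a strand setting for RNA-seq are not given in the sources used here, so *Fgfr1*, with an exon overlapped by *Gm16159* on the other strand, is uncertain.

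The fits used edgeR 4.0.16 under R 4.3.3 (glmQLFTest, the quasi-likelihood test, after filterByExpr) and the size factors of DESeq2 1.42.0, over all libraries of a table (17021 genes; 22621 genes and repeats), with Benjamini-Hochberg adjustment over all of them. The limit for a call was 0.05. The 95% intervals take a normal spread around the estimate from its SE, so they are somewhat narrower than the quasi-likelihood test would give. The tests were tried on simulated counts. DESeq2's Wald test, other scalings, filters and sample sets, replicate blocks and leaving out replicates were the alternatives. Input and IP of a replicate came from the same RNA, and their deviations correlated (r from 0.195 to 0.280). Named genes are the 9, *Mettl3* and *Mettl14*, other pathway genes changed past 2-fold in a knockout or with a called change of IP over input, and the 3 genes nearest in pattern to each member past 2-fold (mean of at least 50). The 9 genes and the lists were chosen with earlier results of these data known. *Spry3* had no identifier.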

Additional observations from a re-analysis of the deposited data

Results flagged for a closer look

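The change in *Mettl3* KO against RBC differed from the change in *Mettl14* KO against WT26, by the interaction term of the edgeR fit over 8 libraries, for 5 of the 9 genes. The difference (log2, *Mettl3* KO minus *Mettl14* KO) was -1.06 for *Egr1*, -0.79 for *Etv4*, 0.70 for *Fgfr2*, 0.68 for *Spry4* and 0.28 for *Etv5*. All 5 were called in *Mettl14* KO and had the same direction or no call in *Mettl3* KO.

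Among the other named pathway genes 11 differed by the same test. The differences were 2.91 for *Fgf2*, 1.98 for *Fgf18*, 0.84 for *Fgf1* and -0.69 for *Fgf17* among the ligands, and -1.86 for *Fgfr3*. They were 1.45 for *Ksr1*, -1.91 for *Dusp9* and -1.03 for *Dusp4*. Among the AP-1 genes they were -1.45 for *Fos*, -1.20 for *Fosb* and -1.42 for *Jun*. *Fgf2* is the gene with calls in opposite directions. The 2 knockouts differ in parental line and in the laboratory of origin, and these cannot be told apart from the subunit lost.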

How the results depend on the processing

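Called changes of the 9 genes in RNA-seq kept their direction in both knockouts under every alternative run. The uncalled *Etv5* in *Mettl3* KO turned to a call in the other direction with library size alone (0.15), and that scaling added *Etv5* to the enriched members in WT26 and RBC. Library totals alone shift log2 values by 0.15 in *Mettl3* KO against RBC, -0.15 in RBC against WT26 and 0.38 to 0.46 in IP over input. That scaling gave 2 members higher in *Mettl3* KO, moved all genes in RBC against WT26 from 3347 higher and 3272 lower to 2159 and 5496, in *Mettl3* KO from 4296 and 4789 to 6061 and 3439, and in IP over input in WT26 from 3833 and 3637 to 6619 and 1719. Requiring more than 2-fold left 3 members lower in each knockout, 1 higher and 0 lower in RBC against WT26, and 0 higher and 1 lower for the difference between the knockouts. Leaving out 1 replicate gave 6 lower in both knockouts, 2 higher in *Mettl14* KO and 1 in *Mettl3* KO, 2 to 3 higher and 2 to 4 lower in RBC against WT26, and 2 to 3 higher for the difference; a line left with 1 library was assumed to vary like the others.

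IP over input gave 0 to 5 enriched members in WT26, *Mettl14* KO and RBC and 0 to 1 in *Mettl3* KO when a replicate was left out. In *Mettl3* KO 2 were enriched (*Egr1* was added) with DESeq2, library size alone, no filter, or the libraries compared alone, where all features counted 628 in the main fit and from 1349 to 2760. *Fgfr1* was depleted (1 lower) with DESeq2 in RBC and *Mettl3* KO, with at least 10 counts in every library in RBC, and with genes alone in WT26 and RBC. In the inputs 1 member (*Dusp6*) was lower with DESeq2 in both knockouts and with TMM, genes alone or the libraries compared in *Mettl3* KO, and 3 and 2 were lower and 1 and 0 higher without a filter. Leaving out replicates gave 0 to 1 lower in the *Mettl3* KO inputs. Over all features, the enriched fell from 3833 in WT26, 3054 in *Mettl14* KO and 3510 in RBC to 0 without replicate 2 of that line, and from 628 to 0 without either replicate of *Mettl3* KO, whereas library size alone gave 5872 in *Mettl14* KO and 6690 in RBC. The change of IP over input, 0 features in both knockouts, came to 18 higher and 6 lower for *Mettl14* KO, and to 19 and 6 for *Mettl3* KO, without a filter, 0 of the 9 among them. DESeq2 called 168 higher and 260 lower in the *Mettl14* KO inputs and 140 and 346 in the *Mettl3* KO inputs.

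No label says that a replicate number marks a shared batch across lines. In RNA-seq same-numbered deviations correlated at -0.0713 (WT26 and *Mettl14* KO), 0.453 (RBC and *Mettl3* KO) and -0.172 (WT26 and RBC), and a replicate block changed no call of the 9 in either knockout. Crossing the numbers of WT26 left 3 members higher and 3 lower in RBC against WT26. In MeRIP-seq the correlations were 0.612 to 0.806 in the IPs and 0.251 to 0.452 in the inputs, so same-numbered libraries deviated together there. A replicate block on inputs alone gave 1 higher and 4 lower in *Mettl14* KO and 1 higher and 6 lower in *Mettl3* KO, and 939 and 1105 features were higher and 1543 and 2070 lower, in place of 28 and 41 and of 62 and 131. A block within inputs and within IPs, added after seeing the data, gave 1 higher and 3 lower in both inputs, 1 member depleted in every line, and 4 enriched in *Mettl14* KO (without *Spry4*) and 2 in *Mettl3* KO. That fit sets IP over input at the level of replicate 1, so its enriched and depleted counts are not a blocked form of the main ones. The pair block of input and IP left 0 enriched in *Mettl3* KO and changed no other call of the 9. With 2 replicates per line the spread between replicates limits the MeRIP-seq values.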
